A study of Mus musculus with 18 samples.

Results

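This account covers the comparison of knockout (KO) with wild type (WT) pancreatic islets after cytokine treatment, which is 6 of the 18 RNA-seq libraries of the study, 3 of each genotype. The libraries were chosen by their labels, and the genes are the 17590 of 55536 in the deposited count table that passed a low-count filter. The KO mice carried ZNT8 -/- and the WT mice ZNT8 +/+, both on NOD.CB17-Prkdcscid/NCrCrl, an immunodeficient strain without mature T and B lymphocytes. Mice were 17-week-old males (n = 3 in the labels), and their islets were freed with Cizyme RI and a Lympholyte gradient and rested overnight. All 6 libraries come from islets then kept for 24 h with TNF-α at 100 pg/ml, IL-1β at 150 pg/ml and IFN-γ at 10 pg/ml. Heterozygous (Het, ZNT8 +/-) islets with the same cytokines, and KO and WT islets without them, are described only beside these values, but they share in the estimate of spread behind every p. The sources used here do not give which part of the gene is deleted or whether a library is 1 mouse or a pool, and the p-values therefore rest on the spread among these libraries. The 6 libraries held 22990164 to 28989342 assigned reads each.

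ZnT8, the product of Slc30a8, is the zinc transporter of the insulin secretory granule, where zinc is packed with insulin into crystals. Islets are small endocrine organs of beta, alpha, delta and PP cells, fed by a dense fenestrated capillary bed and surrounded by the enzyme-secreting acinar cells and ducts of the exocrine pancreas. TNF-α, IL-1β and IFN-γ are the cytokines classically used on cultured islets as a model of immune attack on beta cells, with NF-kB among their main effectors.

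With cytokines, KO islets had less RNA of digestive enzyme, duct and endothelial genes than WT islets, and modestly more of a few beta cell and secretory granule genes. Levels are CPM, read counts scaled to each library's total, and differences are log2 fold changes of KO over WT ± SE from edgeR's quasi-likelihood test, called at a Benjamini-Hochberg adjusted p under 0.05. The test called 937 of the 17590 genes (5.33%), of which 268 were higher in KO (1.52% of all genes tested) and 669 were lower (3.80%). Before adjustment, 4230 genes had a p under 0.05. The median difference was 0.35 among the higher calls, -0.57 among the lower calls and 0.00 over all genes. Few of the higher calls were large: 8 reached 2-fold and 229 (85.5%) stayed under 1.5-fold, while 234 of the lower calls reached 2-fold. The median level was 39.9 CPM for the higher calls, 27.3 CPM for the lower calls and 13.3 CPM for all genes.

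**Figure D1:**
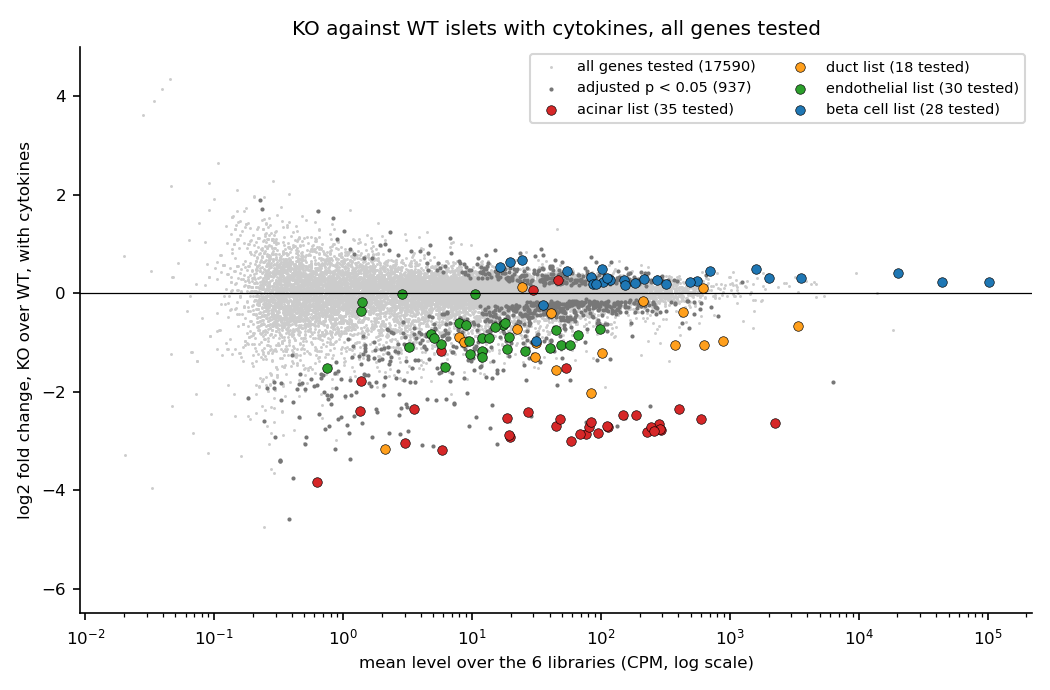
Log2 fold change of KO over WT islets with cytokines (y axis) against the mean level over the 6 libraries in CPM (x axis, log scale), 1 point per gene. Grey marks the 17590 genes tested and dark grey the 937 called; 32 of the 35 tested genes of the acinar list (red) were called, all lower in KO, while the beta cell list (blue) sits near a median of 0.26.

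The 3 KO libraries did not overlap the 3 WT libraries for 934 of the 937 calls. Among all genes tested, the groups did not overlap for 30.5%, with KO above WT for 14.5% and below it for 16.0%. Single libraries weighed on the count: it was 374, 205 and 1300 without KO replicate 1, 2 and 3, and 454, 261 and 559 without WT replicate 1, 2 and 3. The higher calls were the more affected: these fits called 16 to 452 genes higher, against 189 to 848 lower. Sorted by gene lists, the lower calls held 32 of 35 acinar and 7 of 30 vascular genes. They held 10 of 25 genes of the duct list joined with the trefoil, mucin and keratin list, acinar genes left out. Of 74 islet endocrine genes, a class that here includes granule exocytosis genes, they held 2. Islet endocrine genes gave 5 of the higher calls and the exocrine and vascular lists gave 0, and 263 higher and 618 lower calls were in none of these lists.

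As a check of the labels, Slc30a8 itself (ENSMUSG00000022315, on the plus strand of chromosome 15 at 52295553 to 52335798 of GRCm38) had reads in every library. It stood at 20.8, 23.2 and 20.0 CPM in KO islets, against 34.5, 43.7 and 46.4 CPM in WT islets, and at 32.1, 34.3 and 56.6 CPM in Het islets. All KO libraries were below all WT libraries, and the Het libraries spread from below the WT minimum to above the WT maximum. The difference was -0.96 ± 0.20, adjusted p = 0.0148 by edgeR. The call was lost without KO replicate 1 or 2 or WT replicate 2 or 3 (adjusted p up to 0.0664). Reads counted per gene do not separate a deleted part from the rest of the gene, so the reads in KO do not check for protein.

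The exocrine genes made up the largest fall. Acinar cells make the pancreatic digestive enzymes, and their genes respond to the PTF1 complex, whose DNA-binding subunit Ptf1a is known to bind an E-box together with a TTTCCC box. Promoters of 4 acinar genes are shown because these genes fell together here. Ctrl, Cel and Klk1 are among the 15 largest falls, and Cela1, a pancreatic elastase, was added with its values known because its promoter holds both boxes close together. Each line is the 250 bases before the RefSeq gene start (build GRCm38.p6), 5′ to 3′ on the gene's strand, and capitals mark the letters CACCTG or TTTCCC on either strand. The windows are chr15:100687921-100688170 (minus strand) for Cela1, chr8:105933863-105934112 (minus strand) for Ctrl, chr2:28563404-28563653 (minus strand) for Cel and chr7:44225110-44225359 (plus strand) for Klk1.
Cela1: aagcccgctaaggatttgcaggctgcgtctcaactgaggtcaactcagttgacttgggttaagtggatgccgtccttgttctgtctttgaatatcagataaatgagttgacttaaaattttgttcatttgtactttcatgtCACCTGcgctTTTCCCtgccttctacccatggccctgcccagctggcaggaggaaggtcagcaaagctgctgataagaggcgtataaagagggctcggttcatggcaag
Ctrl: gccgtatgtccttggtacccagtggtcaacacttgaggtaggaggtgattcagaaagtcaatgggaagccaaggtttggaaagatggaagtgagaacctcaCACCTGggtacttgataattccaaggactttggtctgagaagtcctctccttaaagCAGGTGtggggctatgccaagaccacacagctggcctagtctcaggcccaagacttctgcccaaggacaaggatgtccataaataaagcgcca
Cel: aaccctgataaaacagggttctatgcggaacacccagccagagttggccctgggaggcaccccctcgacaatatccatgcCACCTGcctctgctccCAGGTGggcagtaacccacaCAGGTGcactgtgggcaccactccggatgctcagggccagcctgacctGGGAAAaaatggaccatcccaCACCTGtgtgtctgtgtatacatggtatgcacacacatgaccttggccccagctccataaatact
Klk1: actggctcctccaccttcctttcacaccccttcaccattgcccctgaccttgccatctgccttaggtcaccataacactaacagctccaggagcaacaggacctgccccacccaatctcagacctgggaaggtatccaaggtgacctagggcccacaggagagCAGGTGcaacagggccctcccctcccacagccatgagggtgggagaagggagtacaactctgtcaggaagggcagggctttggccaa
In Cela1 the E-box starts 109 bases and the TTTCCC box 99 bases before the gene start. The table held 33 promoters for 30 of the acinar genes, and CACCTG was in 18 of them (54.5%), against 17.2% of all 32851 promoters of this length. The share was 60.0% of 15 duct promoters, 10.5% of 19 endothelial promoters and 18.5% of 27 beta cell promoters. TTTCCC was in 27.3% of the acinar promoters, against 21.9% of all. A match is a run of letters in a window and not a bound site.

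Of the 38 acinar genes listed, 35 were tested, 32 fell and 0 rose, with a median of -2.69 against 0.00 over all genes. Zg16, a zymogen granule lectin, stood at 3.07, 5.02 and 5.80 CPM in KO islets, against 33.0, 39.5 and 32.2 CPM in WT islets. Ctrl, a chymotrypsin-like protease, stood at 6.14, 14.2 and 18.5 CPM in KO islets, against 89.3, 128 and 93.3 CPM in WT islets. The groups lay far apart for both, and the differences were -2.92 ± 0.29, adjusted p = 0.000315 by edgeR for Zg16, and -3.01 ± 0.36, adjusted p = 0.00103 by edgeR for Ctrl. Cel, the bile salt-activated lipase, stood at 33.5, 63.8 and 73.3 CPM in KO islets, against 283, 527 and 384 CPM in WT islets. Pancreatic lipase Pnlip stood at 30.3, 82.3 and 83.9 CPM in KO islets, against 417, 566 and 372 CPM in WT islets. KO replicate 1 was the lowest library for each of these enzymes and WT replicate 2 the highest. The difference was -2.81 ± 0.32, adjusted p = 0.000845 by edgeR for Cel, and -2.79 ± 0.42, adjusted p = 0.00290 by edgeR for Pnlip.

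Cela1 stood at 45.8, 91.8 and 96.2 CPM in KO islets, against 390.1, 604 and 483 CPM in WT islets (-2.66 ± 0.31, adjusted p = 0.000962 by edgeR). Other enzymes fell by similar amounts: carboxypeptidases Cpb1 (from 19.6 to 36.0 CPM in KO, against 146 to 245 CPM in WT) and Cpa1 (-2.78 ± 0.34), the kallikrein Klk1 (-2.83 ± 0.35), phospholipase Pla2g1b (-2.87 ± 0.38), trypsinogen Try4 (-2.86 ± 0.31) and elastase Cela2a (-2.72 ± 0.35). Ctrc (-2.85 ± 0.39) starts at the same place as Cela2a in the annotation, and the trypsinogens are near copies of each other, so their single values are less certain. Prss3, another trypsinogen, stood at 0.459, 2.24 and 0.883 CPM in KO islets, against 10.0, 10.6 and 10.8 CPM in WT islets (-3.17 ± 0.82, adjusted p = 0.0417 by edgeR). Its call was lost without KO replicate 1, 2 or 3 or WT replicate 1, 2 or 3 (adjusted p up to 0.136). Ptf1a itself was low, at 0.776, 0.404 and 0.653 CPM in KO islets, against 1.36, 2.84 and 2.23 CPM in WT islets, and did not pass (-1.79 ± 0.52, adjusted p = 0.0569 by edgeR). Of the 32 acinar falls, 28 to 31 passed when any 1 of the 6 libraries was left out.

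Summed over the 38 genes, the acinar share of assigned reads was 0.0994, 0.202 and 0.231% in KO, against 0.694, 1.29 and 1.16% in WT. Het libraries lay between, at 0.533, 0.385 and 0.342%. The WT share was 6.07-fold the KO share, with no overlap (exact permutation test, two-sided, p = 0.1, the smallest that 3 against 3 can give). In whole islets, fewer cells of a type and less RNA per cell cannot be told apart. With the summed acinar level as a covariate, edgeR called 0 genes (1119 at an unadjusted p under 0.05), and in these libraries the acinar level and the genotype cannot be told apart.

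**Figure D2:**
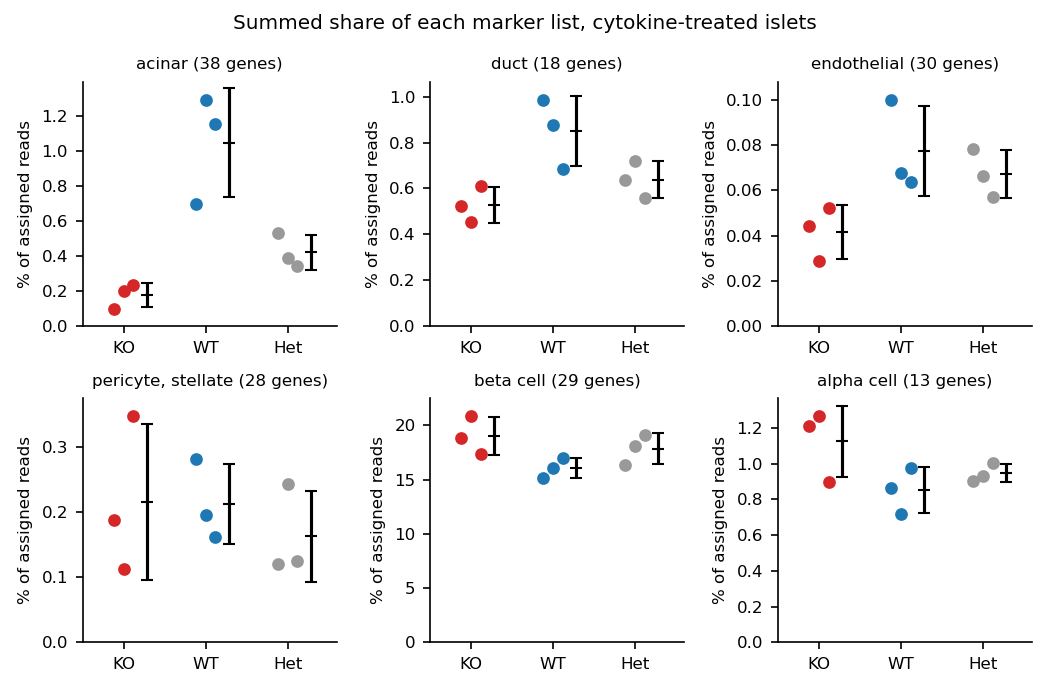
Share of assigned reads (percent, linear axis from 0) taken by 6 marker lists in each cytokine-treated library, with KO, WT and Het left to right; bars give mean ± SD of 3 libraries. The acinar, duct and endothelial shares of the 3 KO libraries lie below those of the 3 WT libraries, and the pericyte and stellate shares overlap.

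Duct and mucosal epithelial genes fell with them. Of all genes tested, 3.80% were called lower. Of 18 duct genes tested, 6 fell and 0 rose (median -0.98), and their summed share was 0.524, 0.454 and 0.610% in KO, against 0.988, 0.876 and 0.686% in WT (WT 1.60-fold the KO share, exact permutation p = 0.1). Krt19, the keratin that defines ductal cells, stood at 25.1, 24.9 and 49.4 CPM in KO islets, against 100.4, 174 and 128 CPM in WT islets. The groups did not overlap, with KO replicate 3 the highest of its group (-2.02 ± 0.35, adjusted p = 0.00677 by edgeR). Krt8 and Krt18, a keratin pair also present in endocrine cells, fell less, with Krt18 at 410.2, 361 and 457 CPM in KO islets, against 729, 966 and 859 CPM in WT islets. Krt18 differed by -1.06 ± 0.15, adjusted p = 0.00156 by edgeR, and Krt8 by -0.97 ± 0.14, adjusted p = 0.00185 by edgeR. Muc1, an apical membrane mucin, differed by -1.22 ± 0.24, adjusted p = 0.0123 by edgeR, a call lost without KO replicate 2 or WT replicate 2 (adjusted p up to 0.0772). Without KO replicate 2 or WT replicate 2, 3 duct genes passed.

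Of 15 trefoil, mucin and keratin genes tested, 11 fell and 0 rose (median -1.06), against 3.80% called lower of all genes. This list shares genes with the acinar and duct lists. Tff2, a trefoil peptide of mucus, stood at 0.564, 0.583 and 0.806 CPM in KO islets, against 3.84, 6.76 and 5.49 CPM in WT islets (-3.03 ± 0.32, adjusted p = 0.000315 by edgeR). Krt23 stood at 2.05, 3.32 and 4.30 CPM in KO islets, against 12.2, 21.1 and 21.6 CPM in WT islets (-2.51 ± 0.29, adjusted p = 0.000660 by edgeR). Both were low genes whose groups stood several-fold apart. Tff1 (-3.17 ± 0.76, adjusted p = 0.0284 by edgeR) and Krt20 (-3.11 ± 0.58, adjusted p = 0.00901 by edgeR) also fell by about 3 log2 units. So did the keratin Krt6a, which is not in this list (-3.08 ± 0.62, adjusted p = 0.0128 by edgeR). Krt20 lost its call without KO replicate 2 (adjusted p = 0.0554), Krt6a without KO replicate 1 or 2 or WT replicate 2 (adjusted p up to 0.0772) and Tff1 without KO replicate 1, 2 or 3 or WT replicate 2 or 3 (adjusted p up to 0.105). Without KO replicate 2, 6 of the 15 genes passed, and 7 without WT replicate 2.

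The Reg genes encode secreted lectins made largely by acinar cells and raised in pancreatic injury. In the list of Reg and acute phase genes, 7 of 23 fell and 1 rose, against 3.80% called lower and 1.52% higher of all genes. Reg1 stood at 28.3, 51.7 and 56.7 CPM in KO islets, against 108, 303 and 343 CPM in WT islets (-2.47 ± 0.39, adjusted p = 0.00430 by edgeR). Reg2 stood at 14.9, 22.5 and 27.3 CPM in KO islets, against 60.0, 159 and 179 CPM in WT islets (-2.62 ± 0.35, adjusted p = 0.00168 by edgeR). WT replicate 1 was the lowest of its group for both, yet above every KO library. Reg3a differed by -3.06 ± 0.47, adjusted p = 0.00342 by edgeR, and Reg3d by -2.83 ± 0.38, adjusted p = 0.00103 by edgeR; reads of these near relatives are assigned with less certainty. The member that rose was Orm1, an acute phase plasma protein, at 44.8, 36.8 and 52.3 CPM in KO islets, against 23.9, 26.7 and 27.5 CPM in WT islets (0.78 ± 0.21, adjusted p = 0.0449 by edgeR), a call lost without KO replicate 1, 2 or 3 or WT replicate 1, 2 or 3 (adjusted p up to 0.158). Nupr1, a small stress-responsive nuclear protein strongly expressed in injured acinar tissue, stood at 61.7, 82.9 and 102 CPM in KO islets, against 214, 503 and 485 CPM in WT islets (-2.28 ± 0.33, adjusted p = 0.00241 by edgeR). When any 1 library was left out, 4 to 6 genes of the Reg and acute phase list fell and 0 rose. With the 6 libraries alone, Reg1, Reg2, Reg3a and Nupr1 did not pass (edgeR adjusted p from 0.0591 to 0.0874), while Reg3d did (adjusted p = 0.0349).

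Endothelial genes were lower as a group, by less. All 30 tested had a negative difference, 7 passed and 0 rose (median -0.91), against 3.80% called lower of all genes. Kdr, the main VEGF receptor, stood at 32.9, 23.4 and 40.4 CPM in KO islets, against 82.8, 62.8 and 54.8 CPM in WT islets, with no overlap (-1.05 ± 0.19, adjusted p = 0.00897 by edgeR). Emcn, a capillary and venous sialomucin, stood at 14.1, 10.7 and 16.1 CPM in KO islets, against 31.9, 21.8 and 21.98 CPM in WT islets (-0.88 ± 0.18, adjusted p = 0.0133 by edgeR). Mmrn2 (-1.18 ± 0.25, adjusted p = 0.0139 by edgeR) and Esam (-0.64 ± 0.15, adjusted p = 0.0224 by edgeR), which encode an endothelial matrix protein and a junction molecule, also fell. Plvap, the protein of fenestral diaphragms, stood at 43.7, 26.5 and 41.7 CPM in KO islets, against 105, 67.4 and 58.2 CPM in WT islets and missed the threshold (-1.04 ± 0.29, adjusted p = 0.0525 by edgeR). Pecam1 stood at 35.0, 24.3 and 40.9 CPM in KO islets, against 71.7, 48.8 and 48.2 CPM in WT islets (-0.75 ± 0.27, adjusted p = 0.115 by edgeR).

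WT replicate 1 was the highest library for each of these endothelial genes. Without it 1 endothelial gene passed, without KO replicate 2 also 1, and without KO replicate 3, 11 passed. Emcn, Mmrn2 and Esam were lost without KO replicate 2 or WT replicate 1 (adjusted p up to 0.121). In the fit on the 6 libraries alone 0 of the 30 passed, and 10 did without the robust setting, an alternative chosen after seeing the data. The summed endothelial share was 0.0444, 0.0287 and 0.0522% in KO, against 0.1003, 0.0679 and 0.0639% in WT (WT 1.87-fold the KO share, exact permutation p = 0.1). Vegfa, the ligand of Kdr that beta cells secrete, stood at 287, 249 and 367 CPM in KO islets, against 353, 326 and 302 CPM in WT islets and did not pass (-0.12 ± 0.10, adjusted p = 0.496 by edgeR).

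Pericytes and stellate cells, the mural and fibroblast-like cells around those capillaries, gave no call by edgeR: 0 of 27 passed (median -0.04), 2 had an unadjusted p under 0.05, and DESeq2 called 2. Their summed share was 0.188, 0.113 and 0.348% in KO, against 0.282, 0.196 and 0.162% in WT, with overlap. Pdgfrb, their defining receptor, stood at 51.3, 34.6 and 92.5 CPM in KO islets, against 71.8, 51.7 and 52.1 CPM in WT islets, and the groups overlapped (0.02 ± 0.34, adjusted p = 0.976 by edgeR). KO replicate 3 was the highest and KO replicate 2 the lowest library. Their most changed genes by p were Rgs5 (-0.54 ± 0.18, adjusted p = 0.0876 by edgeR) and Mgp (-0.88 ± 0.29, adjusted p = 0.0886 by edgeR). Of 29 collagen and matrix genes, 0 passed by edgeR (median -0.26; 5 at an unadjusted p under 0.05, 2 by DESeq2), with the matrix protease Mmp3 from 19.6 to 66.8 CPM in KO and from 89.9 to 258 CPM in WT (-1.90 ± 0.64, adjusted p = 0.0964 by edgeR). Macrophage and dendritic cell genes gave 0 of 26 by edgeR and by DESeq2 (median 0.01; 2 at an unadjusted p under 0.05), with the lipopolysaccharide co-receptor Cd14 from 78.2 to 146 CPM in KO and from 180 to 396 CPM in WT (-1.25 ± 0.49, adjusted p = 0.140 by edgeR). Of 3 adipocyte genes tested, Fabp4, a fatty acid carrier also found in capillary endothelium, fell (-1.11 ± 0.29, adjusted p = 0.0374 by edgeR), a call lost without KO replicate 1 or 2 or WT replicate 1 or 2 (adjusted p up to 0.177). Neutrophil genes gave 0 of 8 by both tools, with 1 at an unadjusted p under 0.05. T, B and natural killer cell genes were near 0, with a summed share of 0.000183, 0.000152 and 0.000211% in KO, against 0.000290, 0.000221 and 0.000252% in WT. Of those 18 genes 3 could be tested, and edgeR called 0, with 0 at an unadjusted p under 0.05 and 0 by DESeq2.

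The summed endothelial share did not overlap between KO and WT, so this level and the genotype cannot be told apart either. With the summed endothelial level as a covariate 116 genes were called, 95 of them among the 937. In that fit 9 genes were higher and 107 lower in KO, and the lower calls held 28 acinar, 5 Reg and acute phase, 3 trefoil and keratin and 4 zinc genes.

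Beta cell genes stood slightly higher in KO islets. Of 28 tested, 26 had a positive difference (median 0.26) and 17 had an unadjusted p under 0.05, and edgeR called 2 rises and 1 fall, that of Slc30a8 itself. Among all genes tested, 1.52% were called higher. The beta cell rises numbered 8 by DESeq2, 15 by limma voom and 7 with the 6 libraries alone. With the endothelial covariate, which cannot be told apart from the genotype here, they numbered 0 and the median was -0.01. The summed share of the beta cell genes was 18.9, 20.9 and 17.4% in KO, against 15.2, 16.0 and 17.0% in WT (KO 1.18-fold the WT share, exact permutation p = 0.1). G6pc2, the islet glucose-6-phosphatase that sets glucose sensing, stood at 1858, 2047 and 1661 CPM in KO islets, against 1194, 1400.5 and 1358 CPM in WT islets (0.49 ± 0.11, adjusted p = 0.0163 by edgeR). Pcsk1, a prohormone convertase that cuts proinsulin, stood at 805, 858 and 783 CPM in KO islets, against 536, 665 and 581 CPM in WT islets (0.46 ± 0.11, adjusted p = 0.0251 by edgeR). All KO libraries were above all WT libraries for both. With the endothelial list as a covariate the difference was 0.19 ± 0.10 for G6pc2 and 0.26 ± 0.14 for Pcsk1. The call was lost for G6pc2 without KO replicate 1 or 2 or WT replicate 1 (adjusted p up to 0.104), and for Pcsk1 without KO replicate 1 or 2 or WT replicate 1 or 3 (adjusted p up to 0.121). Without KO replicate 3, 5 beta cell genes rose, and 0 did without KO replicate 1 or 2 or WT replicate 1.

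The hormone genes did not pass by edgeR. Ins2, the main mouse insulin gene, averaged 110050.0 ± 12716 CPM in KO islets and 94376 ± 6428 CPM in WT islets (SD, n = 3 each; 0.22 ± 0.12, adjusted p = 0.265 by edgeR), and Ins1 differed by 0.23 ± 0.11, adjusted p = 0.219 by edgeR. Iapp, islet amyloid polypeptide, averaged 22953 ± 2700.3 CPM in KO islets and 17353 ± 941 CPM in WT islets, with all KO libraries above all WT libraries, and missed the threshold (0.40 ± 0.12, adjusted p = 0.0557 by edgeR), though it passed by DESeq2 (0.42 ± 0.12, adjusted p = 0.00717). Gcg, the glucagon gene of alpha cells, averaged 10924 ± 2252 CPM in KO islets and 8199.9 ± 1234 CPM in WT islets, with overlap (0.41 ± 0.19, adjusted p = 0.193 by edgeR). Sst, the somatostatin gene of delta cells, averaged 4814 ± 740.1 CPM in KO islets and 4126 ± 610.3 CPM in WT islets (0.22 ± 0.16, adjusted p = 0.435 by edgeR). The endothelial list as a covariate cannot be told apart from the genotype here. With it the differences were -0.15 ± 0.09 for Ins2, -0.11 ± 0.09 for Ins1, 0.08 ± 0.11 for Iapp, -0.10 ± 0.20 for Gcg and -0.30 ± 0.13 for Sst. Ins1 and Ins2 are near copies, so the split of reads between them is less certain.

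The named beta cell transcription factors and maturity genes were not called by edgeR. Pdx1 stood at 99.0, 112 and 80.6 CPM in KO islets, against 76.2, 86.6 and 93.4 CPM in WT islets (0.19 ± 0.15, adjusted p = 0.471 by edgeR). Mafa, an activator of insulin transcription, stood at 112, 137 and 109 CPM in KO islets, against 68.5, 91.5 and 94.4 CPM in WT islets (0.49 ± 0.22, adjusted p = 0.193 by edgeR). Slc2a2, the GLUT2 glucose transporter, stood at 23.5, 25.3 and 23.6 CPM in KO islets, against 14.8, 16.3 and 15.5 CPM in WT islets (0.63 ± 0.25, adjusted p = 0.141 by edgeR). Its 2 genotypes did not overlap, while those of Pdx1 did, and it passed by DESeq2 (adjusted p = 0.0325) and with the 6 libraries alone (adjusted p = 0.0152). Ucn3, a marker of mature beta cells, differed by 0.53 ± 0.28, adjusted p = 0.265 by edgeR. Of 13 alpha cell genes, 12 had a positive difference (median 0.31) and 7 an unadjusted p under 0.05. By edgeR 0 of them rose and 1 fell, while the rises numbered 1 by DESeq2 and 8 by limma voom. The fall was Loxl4, a matrix lysyl oxidase, at 1.09, 0.763 and 1.57 CPM in KO islets, against 2.89, 3.09 and 2.70 CPM in WT islets (-1.33 ± 0.32, adjusted p = 0.0268 by edgeR), lost without KO replicate 1 or 2 or WT replicate 1, 2 or 3 (adjusted p up to 0.137). Delta and PP cell genes gave 0 of 10 by edgeR (median 0.21; 2 at an unadjusted p under 0.05, 1 by DESeq2).

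Granule and folding genes gave a few small rises. Of 24 exocytosis genes, 3 rose and 0 fell (median 0.19, 21 positive), against 1.52% called higher of all genes. Snap25, a core SNARE protein of granule fusion, stood at 177, 207 and 172 CPM in KO islets, against 123, 127 and 140.5 CPM in WT islets (0.50 ± 0.12, adjusted p = 0.0269 by edgeR). Scg5, the chaperone of prohormone convertase 2, differed by 0.38 ± 0.10, adjusted p = 0.0430 by edgeR. Rab27a, which docks granules, stood at 216, 220.4 and 209.8 CPM in KO islets, against 158, 178 and 193 CPM in WT islets (0.29 ± 0.08, adjusted p = 0.0481 by edgeR). The KO libraries were above the WT libraries for all of them. The endothelial list as a covariate cannot be told apart from the genotype here. With it the differences were 0.14 ± 0.10 for Snap25, 0.04 ± 0.08 for Scg5 and 0.07 ± 0.08 for Rab27a. Calls were lost for Snap25 without KO replicate 1 or 2 or WT replicate 1 or 2 (adjusted p up to 0.142), for Scg5 without KO replicate 1 or 2 or WT replicate 1, 2 or 3 (adjusted p up to 0.216) and for Rab27a without KO replicate 1, 2 or 3 or WT replicate 1 or 2 (adjusted p up to 0.197).

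Of 25 endoplasmic reticulum folding genes, 4 rose and 1 fell (median 0.12, 22 positive), against 1.52% called higher and 3.80% lower of all genes. Dnajb9, an IRE1-dependent co-chaperone, stood at 252, 272 and 228 CPM in KO islets, against 188, 194 and 183 CPM in WT islets (0.41 ± 0.10, adjusted p = 0.0259 by edgeR). Edem1 (0.23 ± 0.05, adjusted p = 0.0227 by edgeR), Sdf2l1 (0.35 ± 0.10, adjusted p = 0.0487 by edgeR) and Pdia3 (0.23 ± 0.06, adjusted p = 0.0492 by edgeR) rose by less than 1.5-fold. Eif2ak3, which encodes the stress kinase PERK, fell, at 93.4, 99.7 and 97.7 CPM in KO islets, against 112, 133 and 124 CPM in WT islets (-0.34 ± 0.06, adjusted p = 0.00526 by edgeR). The chaperone Hspa5 stood at 1957, 2020.1 and 1789.5 CPM in KO islets, against 1749, 1878 and 1799.9 CPM in WT islets and did not pass (0.09 ± 0.07, adjusted p = 0.464 by edgeR). Without KO replicate 2 or WT replicate 1, 0 of the rises passed, and 1 did without KO replicate 1 or WT replicate 2 or 3, while the fall of Eif2ak3 passed without any 1 library. With the acinar list as a covariate, which cannot be told apart from the genotype here, Eif2ak3 differed by 0.01 ± 0.12.

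Zinc genes gave 6 calls. Of 26 tested zinc transporters and metallothioneins, 5 fell and 1 rose (median -0.05), against 3.80% called lower and 1.52% higher of all genes. Mt3, a brain-type metallothionein, rose, at 9.84, 11.1 and 6.99 CPM in KO islets, against 3.88, 4.46 and 4.43 CPM in WT islets (1.12 ± 0.18, adjusted p = 0.00249 by edgeR). It was 1.06 ± 0.17, adjusted p = 0.00476 in untreated islets, so it was called in both comparisons, which use different libraries. Mt1, a zinc-induced metallothionein, fell, at 328, 367 and 407 CPM in KO islets, against 461, 744 and 590.0 CPM in WT islets (-0.70 ± 0.17, adjusted p = 0.0285 by edgeR), lost without KO replicate 1 or 2 or WT replicate 2 or 3 (adjusted p up to 0.128). Its neighbour and near copy Mt2 stood at 315, 360.4 and 389 CPM in KO islets, against 405, 587 and 475 CPM in WT islets and missed the threshold (-0.46 ± 0.15, adjusted p = 0.0814 by edgeR). Untreated, the difference was -1.09 ± 0.17, adjusted p = 0.00476 for Mt1, and -1.13 ± 0.15, adjusted p = 0.00242 for Mt2.

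The other falls beside Slc30a8 were in rare transcripts. Slc30a2, a zinc exporter known from acinar and mammary cells, had 6, 7 and 17 reads in KO libraries, against 50, 97 and 72 reads in WT libraries (-2.91 ± 0.43, adjusted p = 0.00181 by edgeR). Slc39a5, a zinc importer known from acinar and gut epithelium, had 2, 3 and 3 reads in KO libraries, against 26, 26 and 15 reads in WT libraries (-3.07 ± 0.53, adjusted p = 0.00494 by edgeR). Slc30a3, the zinc transporter of synaptic vesicles, had 1, 0 and 3 reads in KO libraries, against 10, 32 and 14 reads in WT libraries (-3.76 ± 0.66, adjusted p = 0.00539 by edgeR), a KO to WT ratio of summed reads of 0.0685 (exact 95% interval 0.0180 to 0.185, counting error only). The 3 KO libraries were below the 3 WT libraries for each of Slc30a2, Slc39a5 and Slc30a3. Slc39a5 and Slc30a3 did not pass by DESeq2. As covariates, neither the acinar nor the endothelial list can be told apart from the genotype here. The difference of Slc30a2 was 0.19 ± 0.66 with the acinar list and -3.04 ± 0.58 with the endothelial list. Mt1 turned to 0.16 ± 0.36 with the acinar list and was -0.77 ± 0.25 with the endothelial list. Slc30a8 was -0.93 ± 0.53 with the acinar list and -1.40 ± 0.23 with the endothelial list as a covariate, and Mt3 was 0.91 ± 0.45 and 0.61 ± 0.17. The plasma membrane zinc exporter Slc30a1, itself a zinc-responsive gene, stood at 32.8, 35.3 and 32.8 CPM in KO islets, against 34.3, 33.5 and 33.5 CPM in WT islets (-0.01 ± 0.05, adjusted p = 0.956 by edgeR).

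**Figure D3:**
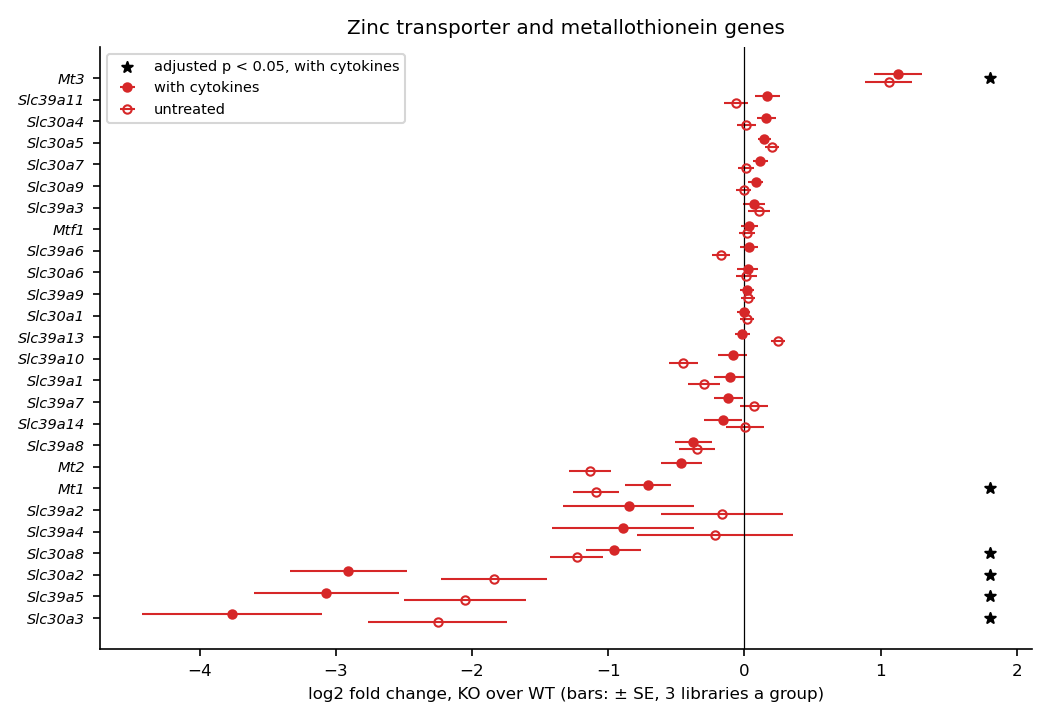
Log2 fold change ± SE (x axis) of the 26 tested zinc transporter and metallothionein genes (rows) in KO over WT islets, with cytokines (filled) and untreated (open), 3 libraries a group. Stars mark the 6 genes called with cytokines; Mt3 is the only one of them to the right of 0, and Slc30a3 stands farthest to the left, with the widest error of the values with cytokines.

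NF-kB and interferon targets are the genes these cytokines are known to induce. Of 43 NF-kB targets, 1 rose and 2 fell (median -0.14), against 5.33% called of all genes. Nos2, the inducible nitric oxide synthase, stood at 76.9, 85.3 and 55.2 CPM in KO islets, against 60.5, 63.0 and 63.5 CPM in WT islets, and the groups overlapped (0.22 ± 0.36, adjusted p = 0.758 by edgeR). Csf3, the granulocyte growth factor, stood at 97.5, 107 and 79.5 CPM in KO islets, against 69.0, 72.3 and 75.0 CPM in WT islets, with KO above WT (0.39 ± 0.19, adjusted p = 0.232 by edgeR). Sod2, the mitochondrial superoxide dismutase, rose, at 739, 755 and 706 CPM in KO islets, against 553, 560.1 and 581 CPM in WT islets (0.38 ± 0.09, adjusted p = 0.0231 by edgeR), a call lost without KO replicate 1 or 2 or WT replicate 1 or 2 (adjusted p up to 0.107). Rela, the p65 subunit of NF-kB, fell, at 73.2, 62.3 and 75.9 CPM in KO islets, against 95.8, 97.2 and 87.5 CPM in WT islets (-0.41 ± 0.08, adjusted p = 0.0127 by edgeR), a call lost without KO replicate 2 or WT replicate 2 (adjusted p up to 0.0785). The neutrophil chemokine Cxcl2 fell, at 20.1, 15.7 and 17.4 CPM in KO islets, against 62.7, 36.0 and 25.9 CPM in WT islets, with WT replicate 1 the highest (-1.23 ± 0.33, adjusted p = 0.0483 by edgeR), and lost its call without KO replicate 1, 2 or 3 or WT replicate 1 or 2 (adjusted p up to 0.211). Cxcl2 did not pass by DESeq2 (-1.21 ± 0.46, adjusted p = 0.0641).

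Of 58 interferon targets, 1 fell and 0 rose (median -0.05). It was Oasl1, a 2′-5′-oligoadenylate synthetase-like antiviral protein, at 4.20, 3.45 and 3.99 CPM in KO islets, against 8.02, 5.76 and 5.56 CPM in WT islets (-0.73 ± 0.20, adjusted p = 0.0438 by edgeR), lost without KO replicate 1, 2 or 3 or WT replicate 1, 2 or 3 (adjusted p up to 0.195). The chemokine Cxcl10 stood at 4.87, 3.41 and 4.88 CPM in KO islets, against 4.09, 2.88 and 2.82 CPM in WT islets, with overlap (0.43 ± 0.54, adjusted p = 0.674 by edgeR). Of 23 genes of MHC class I presentation, 2 rose and 0 fell (median 0.12), against 1.52% called higher and 3.80% lower of all genes. Psmb10, an immunoproteasome subunit, stood at 63.2, 57.2 and 48.9 CPM in KO islets, against 42.6, 39.9 and 44.5 CPM in WT islets (0.41 ± 0.11, adjusted p = 0.0394 by edgeR), lost without KO replicate 1 or 2 or WT replicate 1, 2 or 3 (adjusted p up to 0.1501). B2m, the light chain of class I, stood at 229, 192 and 275 CPM in KO islets, against 368, 259.8 and 285 CPM in WT islets and did not pass (-0.39 ± 0.26, adjusted p = 0.379 by edgeR).

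The series title names mitochondrial respiration, and respiratory chain genes gave no call by edgeR. Over all 17590 genes tested, 4230 had an unadjusted p under 0.05 and DESeq2 called 1587, so such counts are common here. Of 37 nuclear genes of complex I, 0 passed (median 0.09, 33 positive), 11 had an unadjusted p under 0.05, and DESeq2 called 4, all higher in KO. Of 44 nuclear genes of complexes II to V, 0 passed (median 0.07, 36 positive), 15 had an unadjusted p under 0.05, and DESeq2 called 7, all higher in KO. Ndufc2, a complex I subunit, stood at 70.0, 77.6 and 67.2 CPM in KO islets, against 58.6, 61.1 and 63.3 CPM in WT islets (0.23 ± 0.07, adjusted p = 0.0569 by edgeR). Atp5g2, a subunit of the ATP synthase ring, stood at 75.2, 78.4 and 69.7 CPM in KO islets, against 66.9, 65.7 and 67.1 CPM in WT islets (0.16 ± 0.05, adjusted p = 0.0535 by edgeR). KO libraries were above WT libraries for both, and both passed by DESeq2 (adjusted p = 0.0184 for Ndufc2 and 0.0171 for Atp5g2). Both were picked for a small p in their lists, so this separation adds nothing to the test. All 13 mitochondrially encoded genes had a positive difference (median 0.33) and 0 passed, with 5 at an unadjusted p under 0.05 and 1 called by DESeq2. Of these, mt-Nd1 stood at 1894, 2158 and 2178 CPM in KO islets, against 1644, 1498 and 1552 CPM in WT islets (0.41 ± 0.14, adjusted p = 0.102 by edgeR), again without overlap.

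Of 27 genes of the citric acid cycle and pyruvate entry, 2 rose and 0 fell (median 0.06), against 1.52% called higher of all genes. Suclg2, the GDP-forming succinate-CoA ligase subunit, stood at 26.5, 29.5 and 25.4 CPM in KO islets, against 19.5, 22.3 and 21.6 CPM in WT islets (0.36 ± 0.08, adjusted p = 0.0190 by edgeR). Mpc1, a subunit of the mitochondrial pyruvate carrier, stood at 37.6, 44.6 and 37.7 CPM in KO islets, against 30.5, 34.6 and 32.6 CPM in WT islets (0.30 ± 0.07, adjusted p = 0.0242 by edgeR). The groups did not overlap for either. The calls were lost for Suclg2 without KO replicate 1 or 2 or WT replicate 1 (adjusted p up to 0.118) and for Mpc1 without KO replicate 2 or WT replicate 1 or 3 (adjusted p up to 0.138). Glycolysis and hypoxia genes gave 0 of 23 by both tools (median -0.05; 1 at an unadjusted p under 0.05), and Ppargc1a, a regulator of mitochondrial biogenesis, was low, at 0.882, 0.404 and 0.998 CPM in KO islets, against 1.32, 1.38 and 0.823 CPM in WT islets (-0.60 ± 0.39, adjusted p = 0.368 by edgeR).

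Among stress genes falls were the more frequent, as among all genes tested, of which 3.80% were called lower and 1.52% higher. Of 20 ATF4 and CHOP genes, 4 fell and 0 rose (median -0.16), and Nupr1 above was 1 of them. Phgdh, the first enzyme of serine synthesis, stood at 17.4, 19.0 and 17.2 CPM in KO islets, against 23.9, 30.7 and 30.3 CPM in WT islets (-0.66 ± 0.11, adjusted p = 0.00297 by edgeR). Atf3, a stress-induced transcription factor, stood at 6.63, 6.28 and 7.99 CPM in KO islets, against 9.42, 11.0 and 10.1 CPM in WT islets (-0.55 ± 0.12, adjusted p = 0.0164 by edgeR). Shmt2, of mitochondrial one-carbon metabolism, differed by -0.22 ± 0.05, adjusted p = 0.0290 by edgeR. All KO libraries were below all WT libraries for these genes. Atf3 lost its call without KO replicate 1 or 2 or WT replicate 2 (adjusted p up to 0.1002), and Shmt2 without KO replicate 1 or 2 or WT replicate 2 or 3 (adjusted p up to 0.1496). Ddit3, which encodes CHOP, stood at 10.3, 9.55 and 12.7 CPM in KO islets, against 11.0, 12.7 and 11.1 CPM in WT islets, with overlap (-0.09 ± 0.15, adjusted p = 0.746 by edgeR).

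The counts of the next lists stand beside 3.80% called lower and 1.52% called higher of all genes tested. Apoptosis genes gave 1 fall of 27 (median -0.10): Casp9, the apoptosome caspase, at 11.7, 12.2 and 11.2 CPM in KO islets, against 16.0, 15.1 and 14.5 CPM in WT islets (-0.38 ± 0.07, adjusted p = 0.00552 by edgeR), which passed without any 1 library. Of 31 proliferation genes, 2 fell (median -0.10): the cell cycle inhibitor Cdkn1a, at 111, 106 and 122 CPM in KO islets, against 135, 151 and 148 CPM in WT islets (-0.35 ± 0.07, adjusted p = 0.00901 by edgeR), and the kinase Cdk4 (-0.19 ± 0.04, adjusted p = 0.0164 by edgeR). Cdkn1a lost its call without KO replicate 2 or WT replicate 2 (adjusted p up to 0.0594), and Cdk4 without KO replicate 1 or 2 or WT replicate 2 (adjusted p up to 0.105). Of 23 immediate early genes, 3 fell (median -0.39), among them the transcription factors Klf4, at 22.3, 22.2 and 23.8 CPM in KO islets, against 29.5, 35.8 and 32.9 CPM in WT islets (-0.52 ± 0.10, adjusted p = 0.00731 by edgeR), and Klf6 (-0.68 ± 0.18, adjusted p = 0.0417 by edgeR). Klf4 lost its call without WT replicate 2 (adjusted p = 0.0527), and Klf6 without KO replicate 1 or 2 or WT replicate 1, 2 or 3 (adjusted p up to 0.189). Of 28 antioxidant genes, Sod2 rose and Gclc, the rate-limiting enzyme of glutathione synthesis, fell (-0.25 ± 0.06, adjusted p = 0.0279 by edgeR), a call lost without KO replicate 1, 2 or 3 or WT replicate 1 or 2 (adjusted p up to 0.132). Of 22 cholesterol synthesis genes, 3 rose and 1 fell, and Msmo1, a sterol oxidase, stood at 109, 109 and 102 CPM in KO islets, against 92.5, 91.2 and 86.5 CPM in WT islets (0.24 ± 0.05, adjusted p = 0.00939 by edgeR), lost without KO replicate 2 (adjusted p = 0.0553). Circadian clock genes gave 0 of 16 (median 0.14; 5 at an unadjusted p under 0.05), and genes silenced in mature beta cells gave 0 of 13 (median -0.44; 4 at an unadjusted p under 0.05), by edgeR and by DESeq2.

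**Figure D4:**
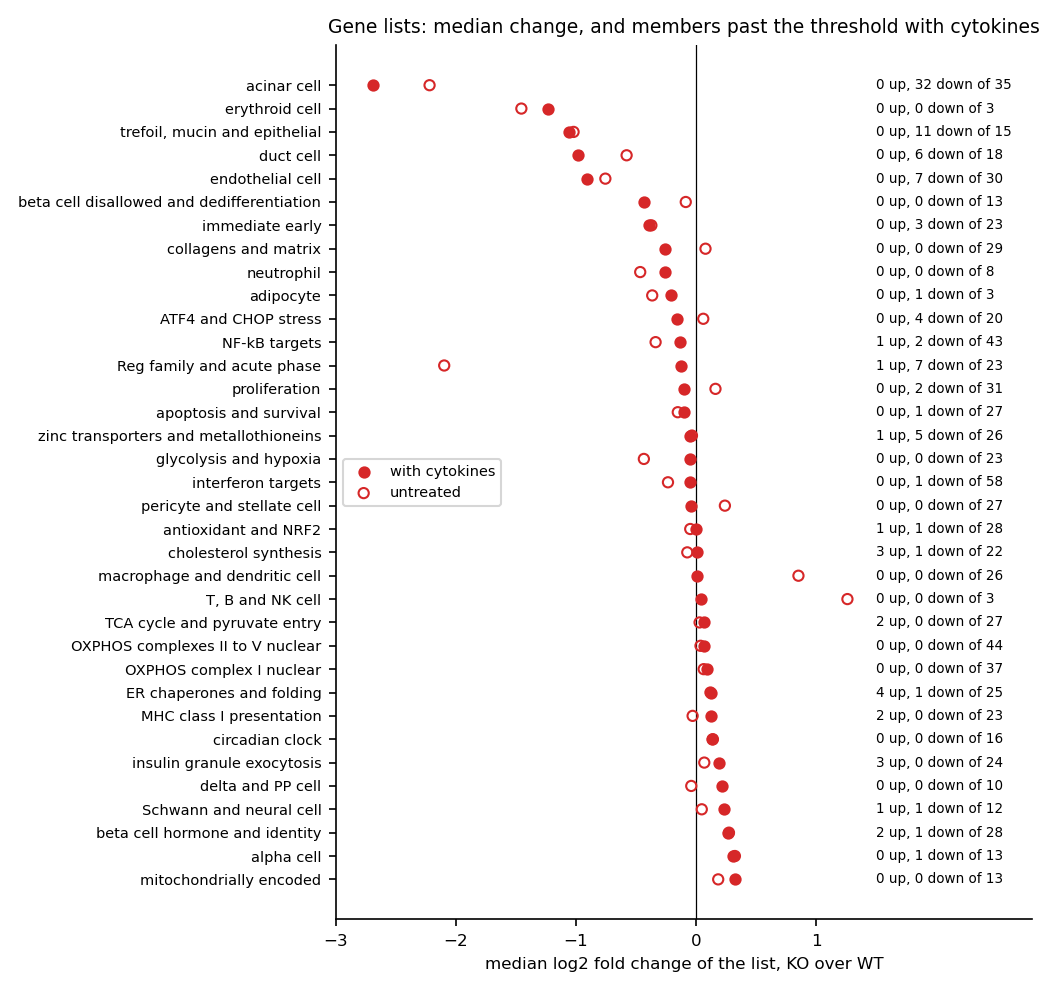
Median log2 fold change of KO over WT (x axis) for each gene list (rows), with cytokines (filled) and untreated (open); the text at right counts members past the threshold with cytokines. The acinar list stands at -2.69, and most lists stand within 0.5 of 0.

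The largest rises were in low or moderate transcripts of varied function. They were chosen from calls whose groups did not overlap. Mt3, described above, passed without any 1 library. Wfdc16, a whey acidic protein-type protease inhibitor, stood at 7.09, 6.28 and 5.53 CPM in KO islets, against 2.77, 3.67 and 3.13 CPM in WT islets (0.98 ± 0.20, adjusted p = 0.0108 by edgeR). Tgm3, a transglutaminase, stood at 40.6, 48.1 and 45.6 CPM in KO islets, against 21.9, 26.2 and 24.3 CPM in WT islets (0.89 ± 0.19, adjusted p = 0.0164 by edgeR). Fbp2, a fructose bisphosphatase of gluconeogenesis, stood at 15.1, 19.1 and 15.01 CPM in KO islets, against 7.98, 10.3 and 10.3 CPM in WT islets (0.78 ± 0.15, adjusted p = 0.00773 by edgeR). Wfdc16 lost its call without KO replicate 1 or WT replicate 1 (adjusted p up to 0.0522), Tgm3 without KO replicate 2 or WT replicate 1, 2 or 3 (adjusted p up to 0.0828) and Fbp2 without KO replicate 2 (adjusted p = 0.0526).

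Th, tyrosine hydroxylase of catecholamine synthesis, stood at 4.94, 5.16 and 2.88 CPM in KO islets, against 2.15, 2.67 and 2.31 CPM in WT islets (0.86 ± 0.21, adjusted p = 0.0276 by edgeR). Trpm2, a redox-sensitive calcium channel with a part in insulin secretion, stood at 2.86, 3.05 and 4.18 CPM in KO islets, against 1.98, 1.75 and 2.12 CPM in WT islets (0.78 ± 0.19, adjusted p = 0.0290 by edgeR). Efnb3, an ephrin ligand, differed by 0.83 ± 0.22, adjusted p = 0.0366 by edgeR, and the collagen receptor Lair1 by 0.99 ± 0.26, adjusted p = 0.0386 by edgeR. Akr1c14, a hydroxysteroid dehydrogenase, differed by 0.87 ± 0.23, adjusted p = 0.0414 by edgeR. Calls were lost for Th without KO replicate 1 or 2 or WT replicate 1, 2 or 3 (adjusted p up to 0.142), for Trpm2 without KO replicate 2 or 3 or WT replicate 1, 2 or 3 (adjusted p up to 0.111), for Efnb3 without KO replicate 1 or 2 or WT replicate 1 or 2 (adjusted p up to 0.153), for Lair1 without KO replicate 2 or 3 or WT replicate 1, 2 or 3 (adjusted p up to 0.145) and for Akr1c14 without KO replicate 1 or 2 or WT replicate 1, 2 or 3 (adjusted p up to 0.192). Further rises among the 15 largest were Mir703, Ugt1a9, Csn3 and Kbtbd3, between 0.81 and 0.87, and each lost its call without at least 1 library. Apob, the lipoprotein scaffold, is like Krt6a among the 15 largest falls and in none of the lists. It stood at 0.529, 0.404 and 1.07 CPM in KO islets, against 2.77, 4.25 and 7.64 CPM in WT islets (-2.85 ± 0.52, adjusted p = 0.00731 by edgeR), a call lost without KO replicate 2 (adjusted p = 0.0519). Of 12 Schwann and neural cell genes, 9 had a positive difference (median 0.23), 1 rose and 1 fell. The fall was the neuregulin receptor Erbb3 (-0.82 ± 0.18, adjusted p = 0.0171 by edgeR), a call lost without KO replicate 1 or 2 or WT replicate 1 or 2 (adjusted p up to 0.0907).

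**Figure D5:**
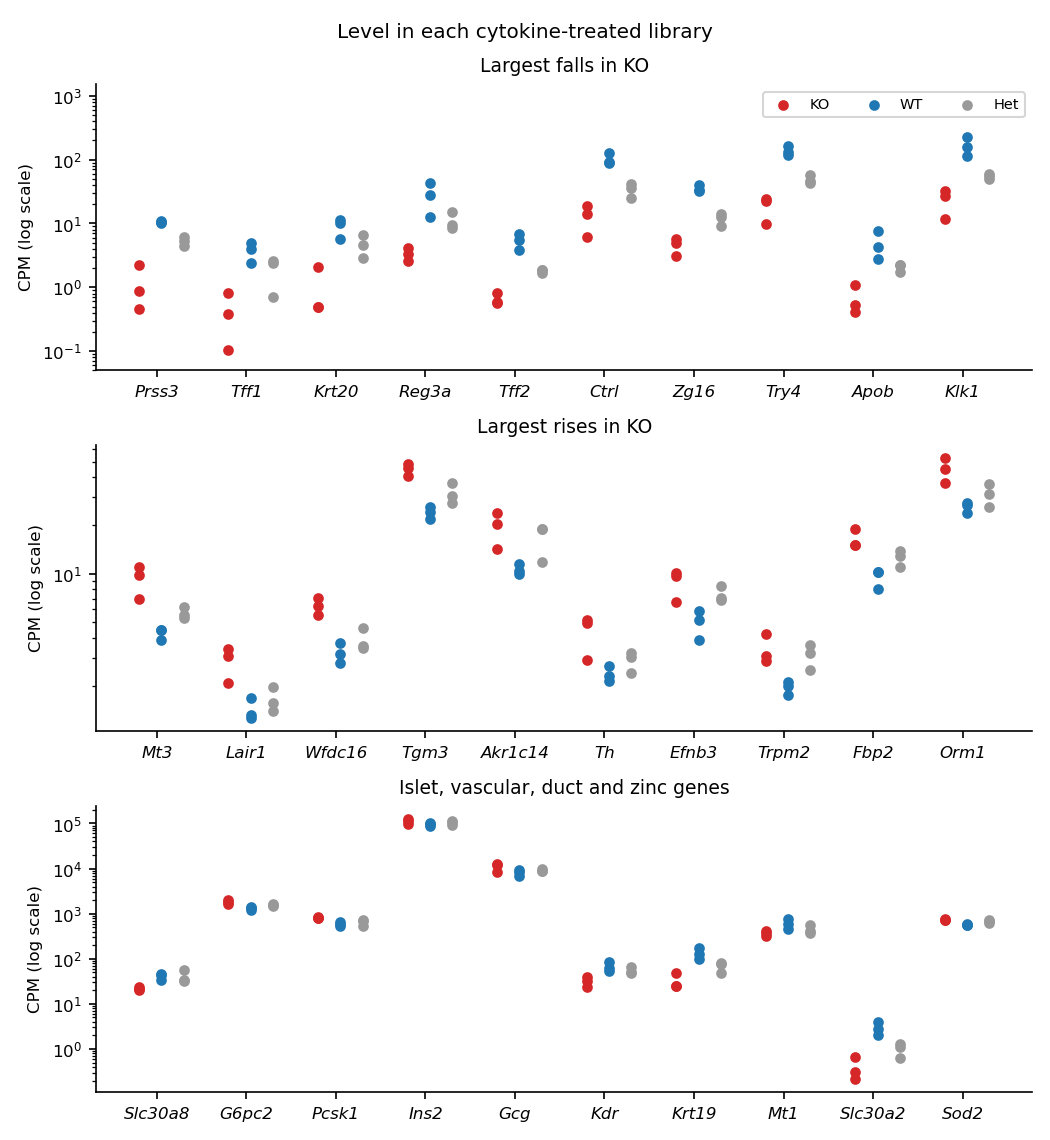
Level in each cytokine-treated library (CPM, log axis) of 30 genes in 3 panels, with KO (red), WT (blue) and Het (grey) left to right for each gene. In the panels of large falls and large rises the genes were chosen for KO points that do not overlap the WT points. Most Het points lie between them.

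Het islets with the same cytokines stood between the other genotypes. The Het mean lay between the KO and WT means for 265 of the 268 higher calls (98.9%) and 660 of the 669 lower calls (98.7%), against 56.4% of all genes tested. Zg16 was at 13.9, 12.8 and 9.22 CPM in Het libraries, Krt19 at 75.2, 80.7 and 49.6 CPM and Mt3 at 5.50, 5.29 and 6.18 CPM. The calls picked genes for a wide gap between KO and WT, so this share is a description.

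Without cytokines, KO against WT called 517 genes (2.94%), 94 higher (0.534%) and 423 lower (2.40%). That comparison uses other libraries, though the labels do not say whether of the same mice. Deviations from the group mean, over 17590 genes, correlated between same-numbered treated and untreated libraries by 0.05, 0.19 and 0.39 for KO and by 0.14, 0.06 and 0.21 for WT. Between different-numbered libraries the correlations ran from -0.36 to 0.28 for KO and from -0.20 to 0.07 for WT. Genes lower in both numbered 226, which is 33.8% of the lower calls with cytokines and 53.4% of those without. Genes higher in both numbered 18, or 6.72% of the higher calls with cytokines and 19.1% of those without. In opposite directions there were 0, and 885 of the 937 calls with cytokines had the same sign without them. Acinar genes fell there too, 30 of 35 (median -2.22), with Zg16 at -2.42 ± 0.28, adjusted p = 0.00155. Falls also numbered 6 of 18 duct, 5 of 30 endothelial, 8 of 15 trefoil, mucin and keratin and 10 of 23 Reg and acute phase genes. Beta cell genes gave 1 higher and 1 lower of 28.

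The interaction, which tests whether the KO to WT difference itself differed between treatments, called 2 of the 17590 genes (0.0114%), with 1184 (6.73%) at an unadjusted p under 0.05. Slc6a14, an amino acid transporter, stood at 40.2, 44.1 and 44.3 CPM in KO islets, against 28.8, 30.2 and 31.5 CPM in WT islets with cytokines (0.50 ± 0.20, adjusted p = 0.141 by edgeR). Without them it had 0, 2 and 1 reads in KO libraries and 45, 20 and 14 reads in WT libraries, a KO to WT ratio of 0.0371 (exact 95% interval 0.00750 to 0.113, counting error only). Its levels without cytokines were thus near the floor in KO. Gm19680, a processed pseudogene, stood at 0.353, 0.404 and 0.346 CPM in KO islets, against 1.78, 2.09 and 2.39 CPM in WT islets with cytokines (-2.50 ± 0.25, adjusted p = 0.000315 by edgeR), and at 1.21, 0.812 and 0.951 CPM in KO islets, against 0.970, 0.993 and 1.21 CPM in WT islets without (-0.09 ± 0.23, adjusted p = 0.878). The interaction was 5.05 ± 0.71 for Slc6a14 and -2.40 ± 0.34 for Gm19680 (edgeR adjusted p = 0.0374 each). Both calls were lost without any 1 of the 12 libraries except untreated WT replicate 3, and 2 other genes passed without cytokine-treated KO replicate 3. For the other genes, the rises seen with cytokines alone are not shown to differ from the untreated comparison.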

How the data were processed

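Bulk RNA-seq of mouse islets was read on an Illumina NovaSeq. The authors deposited raw counts per gene for 18 libraries, and the same counts in a filtered table of 25253 genes. Per the submitters' processing notes, the named tools are STAR 2.5.2a, cutadapt 1.16, DESeq2 1.30.0, featureCounts 1.6.2 and FastQC 0.11.7, and the build is GRCm38. The sources used here give neither strandedness nor the treatment of reads shared by near copies, and near copies (trypsinogens, Reg genes, Ins1 and Ins2, keratins, Mt1 and Mt2) and overlapping genes are less certain. Gene positions are from GENCODE M21, and promoter sequences from RefSeq (GRCm38.p6).

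Groups follow the labels. The counts were fitted with edgeR 4.0.16 in R 4.3.3 (filterByExpr with a count minimum of 10, TMM, quasi-likelihood F-test with robust estimates, 1 mean per group over all 18 libraries) and adjusted by Benjamini-Hochberg over 17590 genes, with a threshold of 0.05. The 3 replicates of a group limit the precision, and 22990164 to 28989342 reads stand behind each library. Summed marker shares were set against each other by an exact permutation test. Alternatives were RLE scaling, no filter, the filtered table, the 6 libraries alone, DESeq2 1.42.0, limma 3.58.1 (voom, quality weights), a replicate block, an acinar or endothelial covariate, each library left out and, chosen after seeing the data, estimates that are not robust. Intervals of read ratios cover counting error only. The edgeR fit was tested on simulated counts.

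The members and gene lists were chosen with earlier results of these data known. Named genes are Slc30a8, a fixed set of islet, zinc, cytokine, exocrine, vascular, mitochondrial and stress genes, up to 15 higher and 15 lower calls of largest difference (at least 2 CPM, groups not overlapping), up to 4 called members of each list or, with none, 2 by smallest p, and the interaction's calls. Some genes so chosen are not reported here.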

Additional observations from a re-analysis of the deposited data

Results flagged for a closer look

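For 2 genes the KO to WT difference itself differed between cytokine-treated and untreated islets. The interaction was 5.05 ± 0.71 on the log2 scale for Slc6a14, with 3275 reads in KO and 2227 in WT islets with cytokines, and 3 in KO and 79 in WT islets without them. It was -2.40 ± 0.34 for Gm19680, with 10, 9 and 9 reads in KO libraries, against 43, 50 and 61 reads in WT libraries with cytokines. The edgeR adjusted p was 0.0374 for each, and neither call held without most of the 12 libraries.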

How the results depend on the processing

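The 937 calls with cytokines became 581 with the 6 libraries alone, 1587 by DESeq2, 4058 by limma voom with quality weights, 116 with the endothelial covariate and 0 with the acinar covariate (edgeR, 1119 at an unadjusted p under 0.05). Other scaling, no filter, the filtered table and the fit without robust estimates gave 696 to 978. Leaving out 1 library gave 205 to 1300. Of the 82 called genes named here, 79 passed by DESeq2 and 42 with the 6 libraries alone, where Krt19 (adjusted p = 0.0673) and Kdr (adjusted p = 0.0929) were lost. The 517 untreated calls became 929 by DESeq2, 1756 by limma voom and 118 to 361 without 1 library. The interaction's 2 calls became 4 with no filter, 0 in the filtered table, 6 with the 12 libraries alone, 53 by DESeq2, 15 by limma voom and 0 to 2 without 1 library. With the replicate number as a block the counts were 51 with cytokines, 183 untreated and 0 for the interaction. In the block fit with cytokines, 14 of the 82 called genes named here passed and 68 were lost. Krt19, Kdr, Pnlip, Ctrl, Mt3 and Casp9 were among those lost. Same-numbered KO and WT libraries with cytokines correlated in their deviations by 0.11, 0.05 and -0.28, and different-numbered ones by -0.34 to 0.32. The labels state no pairing, and so few values cannot settle whether the numbers mark one. Pdgfrb (0.02) was -0.064 by limma voom, -0.078 with the replicate block and -0.44 to 0.29 without 1 library, and Slc30a1 (-0.01) was 0.010 with RLE scaling, 0.011 with no filter, 0.0084 by DESeq2 and -0.043 to 0.013 without 1 library. The cause of these shifts was not tested. The acinar, duct, endothelial and beta cell summed shares kept their direction under another denominator, without their top member and without any 1 library, and the pericyte share (-0.09 as a log2 difference) was -0.51 to 0.30 without 1 library.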
